A study of Mus musculus with 6 samples.

Results

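UDP-glucuronosyltransferases (UGTs) and cytosolic sulfotransferases (SULTs) are the conjugating enzymes of the liver that attach a sugar acid or a sulfate group to drugs, hormones and waste products. Their genes were taken from the deposited table by symbol, as all genes named Ugt1a, Ugt2a, Ugt2b or Ugt3a, or Sult, followed by a number. This gave 39 of the 23282 genes listed, 20 for UGTs and 19 for SULTs. A read was counted for 28 of them in at least 1 sample, and 19 had enough reads to be tested, 12 UGT and 7 SULT genes.

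The samples were primary hepatocytes isolated by collagenase perfusion from C57BL/6N mouse livers, a strain without an engineered allele in the labels. After plating, 3 cultures were left untreated (control) and 3 received recombinant IL-1β protein for 24 h, in an otherwise shared medium. The submitters' design text speaks of 2 samples in a group but names 3, and all 3 in the table were used. IL-1β is a cytokine of inflamed liver, and the comparison asked how hepatocyte RNA differed after it. The 6 libraries were made by QuantSeq, which reads about 1 fragment per mRNA near its 3′ end, so values were not divided by transcript length. The tests compare samples, and where genes are set beside each other, the comparison is of their reads. The labels give neither the age and sex of the mice nor the dose of IL-1β, for which the paper names a single dose of recombinant proteins in other hepatocyte cultures without saying that it held here. The labels also do not say whether the 3 samples of a group came from separate animals, so p-values measure the spread between these samples only.

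UGTs sit in the endoplasmic reticulum membrane and transfer glucuronic acid from UDP-glucuronic acid, whereas SULTs work in the cytosol with the sulfate donor PAPS. The UGT1A enzymes conjugate bilirubin and phenols, and the UGT2B enzymes conjugate steroid hormones, bile acids and many drugs. Of the SULTs, the 1 family acts mainly on phenols, catecholamines, thyroid hormone and estrogens, and the 2 family on hydroxysteroids and bile acids. Hepatocytes are the main site of both reactions, and conjugates leave them through export pumps of the bile and blood sides.

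Values are given as CPM (reads of a gene per 1000000 reads of the library after TMM scaling), with the log2 fold change (log2FC) of IL-1β against control from edgeR's quasi-likelihood test, its standard error (SE) and the p-value adjusted by Benjamini-Hochberg over 11657 genes. A gene was called changed when this adjusted p was below 0.05. The libraries held from 9538741 to 11105408 counts, at which 3 counts correspond to between 0.268 and 0.320 CPM, a limit for counting error only. The ribosomal RNA precursor Rn45s took from 11.7% to 14.2% of the counts of a library. Among the hepatocyte markers, 9 of 10 were tested and their summed level was 26113 to 26650 CPM in control and 22194 to 23906 CPM after IL-1β, with 7 called lower and 0 higher, Alb (albumin) among them at log2FC -0.20 and an edgeR adjusted p of 0.0113. The call for Alb was lost without control sample 2 (adjusted p 0.0744), without IL-1β sample 1 (0.0894) and with limma on log2(CPM + 1) (0.0883). Of 9 macrophage markers, Timd4, Vsig4 and Clec4f were under the filter and 6 were tested, with 0 called. Cd68 led at 192 CPM in control and 184 CPM after IL-1β, before Ctss (30.1 and 29.8 CPM) and Cd5l (19.9 and 17.2 CPM). The 6 summed to 229 to 262 CPM in control and 233 to 262 CPM after IL-1β. Of 6 endothelial markers, 2 were called lower (Kdr and Clec4g) and 1 higher (Lyve1), with sums of 63.4 to 70.4 and 62.5 to 65.7 CPM and Eng the most abundant. Of 6 cholangiocyte markers, 3 were tested and 2 were called lower (Spp1, at log2FC -1.20, and Cldn4). Sox9, the other tested one, went the other way without overlap but was not called. It had 134 ± 5.31 CPM in control and 154 ± 5.85 CPM after IL-1β (log2FC 0.21, edgeR adjusted p 0.0518). The sum of the 3 was 356 to 379 CPM in control and 245 to 249 CPM after IL-1β, while Krt7 and Epcam had at most 2 counts in a library. Dcn was the tested one of 6 stellate cell markers (18.4 and 20.3 CPM). The part of these marker shifts in the results that follow was not tested, and in bulk RNA fewer cells of a type and less RNA per cell cannot be told apart.

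After IL-1β, 4 of the 19 tested genes were called lower (21.1%) and 2 higher (10.5%), against 6.44% lower and 6.97% higher among all genes tested. Called lower were Ugt2b36, Ugt2b1, Ugt2b34 and Sult1d1, and called higher were Ugt2b35 and Ugt2b37. Of all calls 52% were higher, and 39.7% with total-count scaling, which left the calls of these 6 genes in place. In either direction this is 31.6% of the tested members beside 13.4% of all genes. The median log2FC was -0.30 over the 19 members and -0.0018 over all genes. By family it was -0.04 over the Ugt2 genes, 0.01 over the Ugt1a genes and -0.47 over the Sult genes, most of which had few reads. The pooled median is therefore not a fall shared by all families. Without overlap between the 3 control and the 3 IL-1β samples, 6 members were lower and 4 higher, beside 14.2% and 14% of all genes. The count of members called lower was 2 without IL-1β sample 2 and 2 without IL-1β sample 3. The count called higher was 1 without control sample 2, IL-1β sample 2 or IL-1β sample 3. The calls were unequally spread over the families. Of the tested genes, 5 of 8 Ugt2 genes and 1 of 7 Sult genes passed the threshold, and 0 of 3 Ugt1a genes and 0 of 1 Ugt3a gene did. The Ugt1a genes share their 3′ end, so the 3 values listed do not measure 3 separate genes. Read depth differed too. Called Ugt2 genes had means of 4.94 to 198 CPM in control, and Ugt1a5 and Ugt1a10 had 3.19 and 1.04 CPM. SULT genes other than Sult1d1 had 0.464 to 3.75 CPM in a sample, with wide intervals. The part of read depth in this spread was not tested. The log2 fold changes with their intervals show these differences by gene.

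**Figure D1:**
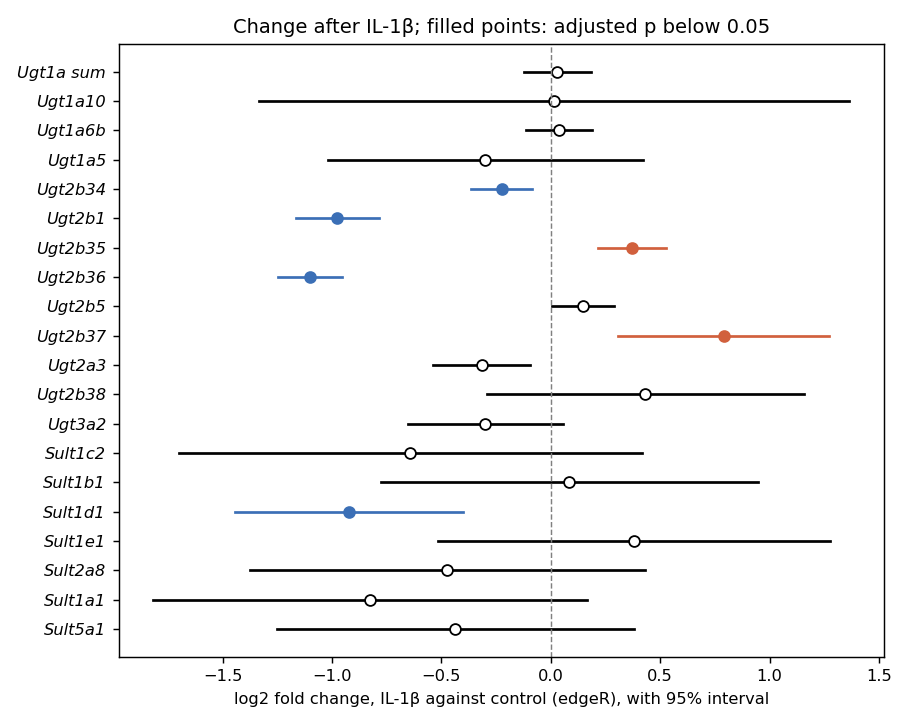
Points show the log2 fold change of IL-1β against control (horizontal axis) for the summed Ugt1a reads and for the 19 tested UGT and SULT genes (vertical axis), with lines for the 95% interval and filled points for an edgeR adjusted p below 0.05. Ugt2b36 (-1.10), Ugt2b1 (-0.97) and Sult1d1 (-0.92) lie farthest to the left among the filled points and Ugt2b37 (0.79) farthest to the right, while the interval of the Ugt1a sum is narrow and spans 0.

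The Ugt1a genes form a single locus on chromosome 1, in which the genes have their own first exons and share the remaining exons and the 3′ end, except that the annotated Ugt1a7c transcript used here ends elsewhere. In the GENCODE annotation of GRCm38, all 426 windows of 75 nt in the last 500 nt of the Ugt1a6b transcript occur in other Ugt1a transcripts too, so a 3′ read cannot be assigned to a first exon. In the deposited table, Ugt1a6b is listed from 88103257 to 88218998 and stops 5 bases short of the annotated gene end, whereas Ugt1a10, the next nearest, stops 2647 bases short and Ugt1a1 6126 bases short. Ugt1a6b held 97.9% ± 0.450 of all Ugt1a reads in control and 98.5% ± 0.121 after IL-1β (SD, n = 3 each). The value listed for Ugt1a6b was therefore read as that of the whole locus and not of the phenol-conjugating Ugt1a6 enzyme.

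Summed over the 8 listed genes, the Ugt1a reads were 254, 283 and 315 CPM in the control samples and 284, 304 and 282 CPM in the IL-1β samples. The groups overlapped. The means were 284.0 ± 30.6 and 289.8 ± 12.0 CPM (SD, n = 3 each), and log2FC was 0.03 with a 95% interval from -0.12 to 0.18 (edgeR adjusted p = 0.875). The direction of this difference was negative with total-count scaling (-0.025), without control sample 1 (-0.045) and without IL-1β sample 2 (-0.0013). Ugt1a6b alone differed by log2FC 0.04 (adjusted p 0.824). The other Ugt1a genes were listed with few reads: Ugt1a5 had 3.19 and 2.59 CPM (log2FC -0.30, adjusted p 0.685), and Ugt1a10 1.04 and 1.01 CPM. Ugt1a1, the bilirubin-conjugating enzyme, was listed with 6, 28 and 19 counts in control and 8, 2 and 8 counts after IL-1β, which was under the filter, and these counts overlapped.

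**Figure D2:**
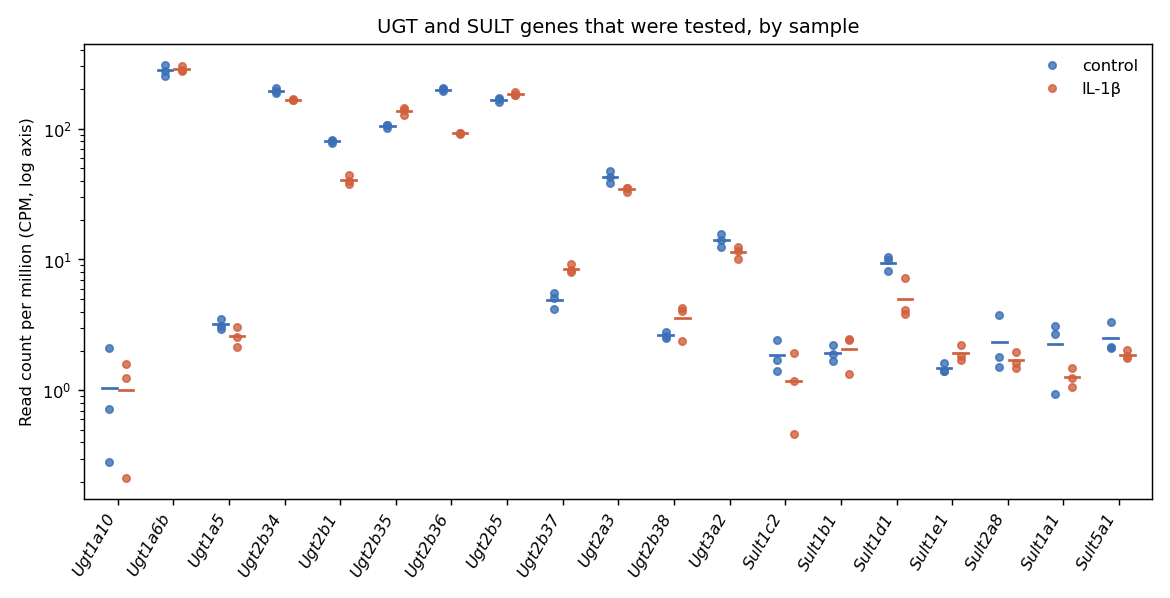
Each point is 1 sample, with CPM on a log axis for the 19 tested UGT and SULT genes, control in blue and IL-1β in orange, and a bar at the mean of 3 samples. The control and IL-1β points are separate for Ugt2b36, Ugt2b1, Ugt2b34, Ugt2b35 and Ugt2b37 and mixed for Ugt1a6b, and SULT genes other than Sult1d1 lie between 0.464 and 3.75 CPM.

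The Ugt2 genes lie on chromosome 5 in 1 cluster with Sult1b1, Sult1d1 and Sult1e1. It spans 701.8 kb (GRCm38, chr5:86889770-87591611) and holds 13 of the 39 genes, 11 of them tested. Most of their 3′ ends differ in sequence. For each of the 8 tested Ugt2 genes, 0 of the 426 windows in the last 500 nt of the transcript matched another gene exactly, and windows with at most 3 mismatches to another Ugt2 gene made up 7.75% for Ugt2b36, 9.62% for Ugt2b5, 7.51% for Ugt2b37, 3.99% for Ugt2b38 and 0% for the other 4. How the authors treated reads that match several genes is not stated. Ugt2a1 and Ugt2a2 share their whole 3′ end and had identical counts, 1 read in each of 2 libraries.

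The largest falls were in Ugt2b36 (NM_001029867, minus strand, transcript from 87065927 to 87092555) and Ugt2b1 (NM_152811, minus strand, 86916639 to 86926503). Both belong to the steroid- and drug-conjugating UGT2B enzymes. The 250 bases before their RefSeq starts are shown because these genes fell most, and those of Ugt2b5 stand beside them because its coding sequence is the closest to that of Ugt2b36 among the tested Ugt2 genes and its reads were not fewer after IL-1β. The regions are chr5:87092556-87092805 on the minus strand, chr5:86926504-86926753 on the minus strand and chr5:87140341-87140590 on the minus strand (RefSeq, GRCm38.p6), written 5′ to 3′ on the gene's strand, with the first base of the transcript following the last letter. Capitals mark a match to TTGCNNAA, a core of C/EBP binding sites, on either strand.
Ugt2b36: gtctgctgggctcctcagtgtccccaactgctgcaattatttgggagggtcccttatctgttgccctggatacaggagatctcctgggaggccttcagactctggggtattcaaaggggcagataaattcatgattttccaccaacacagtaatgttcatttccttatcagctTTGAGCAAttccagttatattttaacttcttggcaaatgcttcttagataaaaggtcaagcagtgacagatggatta
Ugt2b1: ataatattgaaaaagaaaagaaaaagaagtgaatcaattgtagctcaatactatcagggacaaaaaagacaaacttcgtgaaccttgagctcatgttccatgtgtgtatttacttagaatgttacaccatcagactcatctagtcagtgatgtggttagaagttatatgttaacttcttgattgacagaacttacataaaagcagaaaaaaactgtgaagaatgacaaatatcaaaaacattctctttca
Ugt2b5: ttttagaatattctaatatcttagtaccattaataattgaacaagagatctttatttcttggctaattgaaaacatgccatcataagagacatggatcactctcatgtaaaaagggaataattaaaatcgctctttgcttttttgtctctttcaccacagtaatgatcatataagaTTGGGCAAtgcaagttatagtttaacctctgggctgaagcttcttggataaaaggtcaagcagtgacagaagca
The match lies 77 to 70 bases before the start of Ugt2b36 and 74 to 67 bases before that of Ugt2b5, and 10.8% of 32851 RefSeq windows from 250 bases before to 50 after a start hold the motif. Ugt2b1 has a match that spans its start, from 4 bases before it, and so is not in capitals. The upstream stretches of Ugt2b36 and Ugt2b5 were 59.3% identical when aligned and shared the run gataaaaggtcaagcagtgacaga, which Ugt2b37 also has, 31 to 8 bases before the start of Ugt2b36. A motif match or a shared run is a description of the letters and no evidence of binding.

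Ugt2b36 was at 198.7, 203.1 and 192.4 CPM in the control samples and at 91.3, 92.9 and 92.7 CPM in the IL-1β samples. Every IL-1β sample was below every control sample, and the IL-1β values were within 2 CPM of each other. The log2FC was -1.10 (SE 0.071, 95% interval -1.25 to -0.96, edgeR adjusted p = 8.87e-12). Ugt2b1 was at 81.8, 80.4 and 77.4 CPM in control and 39.9, 38.0 and 43.9 CPM after IL-1β. Again the groups were far apart, with log2FC -0.97 (SE 0.092, adjusted p 1.26e-08). Ugt2b34, also on the minus strand, was at 203, 192 and 187 CPM in control and 167, 166 and 166 CPM after IL-1β. Its fall was small but without overlap, with log2FC -0.22 (SE 0.068, edgeR adjusted p = 0.0272). This call was lost when any sample but control sample 3 was omitted, with adjusted p values of 0.0719 and 0.0696 without control samples 1 and 2 and of 0.0941, 0.103 and 0.0886 without IL-1β samples 1, 2 and 3. With 3 samples in each group, the smallest two-sided p of an exact permutation test is 0.1, which each of these genes reached.

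Ugt2b35 (NM_172881) and Ugt2b37 (NM_053215) were called higher after IL-1β. Ugt2b35 is the 1 tested gene of the cluster on the plus strand. The 250 bases before their starts, chr5:87000610-87000859 on the plus strand and chr5:87254789-87255038 on the minus strand (RefSeq, GRCm38.p6), are shown to set these genes beside those that fell. Capitals mark a match to TGACTCA, the AP-1 motif, 180 to 174 bases before the start of Ugt2b37.
Ugt2b35: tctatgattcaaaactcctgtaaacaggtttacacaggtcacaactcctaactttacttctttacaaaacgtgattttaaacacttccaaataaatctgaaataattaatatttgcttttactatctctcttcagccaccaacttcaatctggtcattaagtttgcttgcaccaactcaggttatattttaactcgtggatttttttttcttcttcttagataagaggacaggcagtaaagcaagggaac
Ugt2b37: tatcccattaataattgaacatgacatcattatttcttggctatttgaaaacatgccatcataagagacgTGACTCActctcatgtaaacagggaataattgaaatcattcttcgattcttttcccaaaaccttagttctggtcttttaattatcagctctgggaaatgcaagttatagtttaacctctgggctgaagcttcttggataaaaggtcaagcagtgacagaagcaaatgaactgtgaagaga
AP-1 matches were in 5.2% of all RefSeq windows. In Ugt2b35 none of the 5 searched motifs matched.

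Ugt2b35 was at 107.1, 100.8 and 106.6 CPM in control and 142.6, 138.5 and 125.9 CPM after IL-1β. The lowest IL-1β sample was above the highest control sample, and log2FC was 0.37 (SE 0.076, 95% interval 0.21 to 0.53, edgeR adjusted p = 0.00104). Ugt2b37 was at 5.07, 4.20 and 5.54 CPM in control and 8.01, 9.21 and 8.36 CPM after IL-1β. All IL-1β samples were higher, with log2FC 0.79 (SE 0.233, adjusted p 0.0232). The adjusted p for Ugt2b37 was 0.0878 without control sample 2, 0.104 without IL-1β sample 2 and 0.0623 without IL-1β sample 3. Ugt2b5 was at 171, 160 and 167 CPM in control and 180, 181 and 189 CPM after IL-1β. These groups did not overlap either, but the difference missed the threshold, with log2FC 0.15 (95% interval 0.005 to 0.287, adjusted p 0.192). Ugt2b38, whose coding sequence is closest to that of Ugt2b5, had overlapping values of 2.65 ± 0.158 and 3.58 ± 1.03 CPM (SD, n = 3 each), with log2FC 0.43 and an edgeR adjusted p of 0.520.

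Ugt2a3, which is expressed in liver and gut, was at 47.5, 38.5 and 42.5 CPM in control and 35.2, 32.7 and 35.2 CPM after IL-1β. The groups did not overlap, and log2FC was -0.32 (SE 0.108, edgeR adjusted p = 0.0528). Its adjusted p was below 0.05 with upper-quartile scaling (0.0322), with total-count scaling (0.0202), with the replicate block (0.0495) and without control sample 2 (0.0350). Ugt3a2, from the family that uses sugars other than glucuronic acid, had 12.4 to 15.6 CPM in control and 10.1 to 12.5 CPM after IL-1β, with log2FC -0.30 and an adjusted p of 0.311. Its neighbour Ugt3a1 was under the filter with 5 to 16 counts in a sample.

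Falls and rises occurred side by side, so both the sum and the make-up of the Ugt2 reads differed between the groups. Together the Ugt2 reads were 793 ± 20.8 CPM in control and 665 ± 4.27 CPM after IL-1β (SD, n = 3 each), 16.2% fewer. Of these reads Ugt2b36 held 25.0% ± 0.877 in control and 13.9% ± 0.213 after IL-1β, and Ugt2b1 10.1% ± 0.190 and 6.11% ± 0.442. The shares of Ugt2b5, from 20.9% ± 0.452 to 27.6% ± 0.757, and of Ugt2b35, from 13.2% ± 0.395 to 20.4% ± 1.29, were higher after IL-1β. Ugt2b34 kept a share of 24.5% ± 0.469 and 25.0% ± 0.0926. In a share, a fall of 1 gene raises the others, and the level of Ugt2b5 itself missed the threshold for a change.

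**Figure D3:**
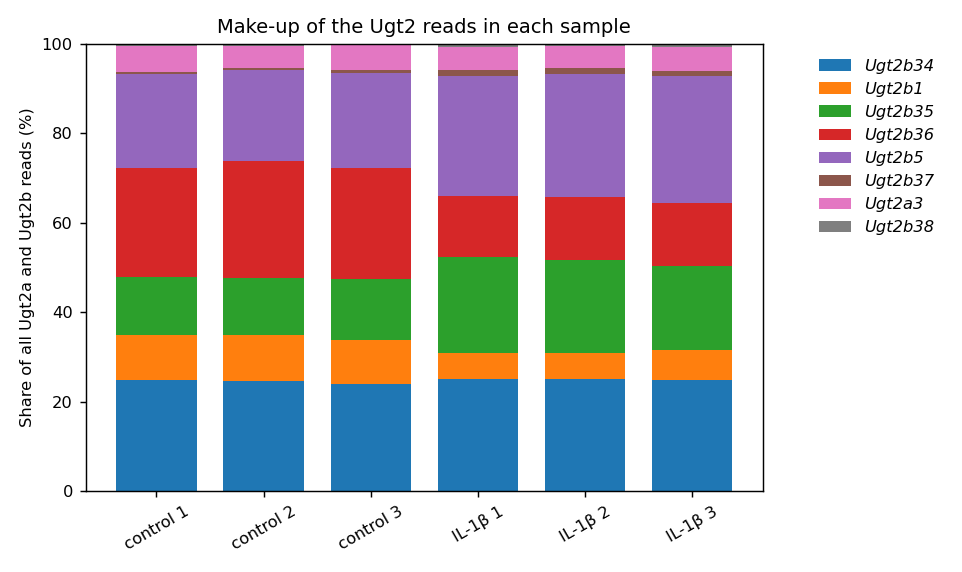
Stacked bars show the percent of all Ugt2a and Ugt2b reads that each tested Ugt2 gene held in each of the 6 samples, on an axis from 0 to 100%. The Ugt2b36 segment is near 25.0% in the control bars and near 13.9% in the IL-1β bars, and the Ugt2b35 and Ugt2b5 segments are taller in the IL-1β bars.

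Ratios between neighbouring genes within a sample do not depend on library scaling. In chromosomal order, the 11 tested genes of the cluster give 10 such pairs, and in 9 of them the ratio did not overlap between control and IL-1β samples (exact permutation test, two-sided p = 0.1 each, the smallest possible, adjusted p 0.111 over the 10 pairs). Over the whole genome, 26.8% of 11591 such pairs of neighbouring tested genes had ratios without overlap, and 63.4% of the 2749 pairs that held at least 1 called gene. Of the 10 pairs here 8 held a called gene, and adjacent pairs share genes. Reads of Ugt2b35 per read of Ugt2b36 were 0.539, 0.496 and 0.554 in control and 1.56, 1.49 and 1.36 after IL-1β. Ugt2b36 had more reads than Ugt2b35 in every control sample and fewer in every IL-1β sample. Reads of Ugt2b36 per read of Ugt2b5 were 1.16, 1.27 and 1.15 in control and 0.506, 0.513 and 0.490 after IL-1β. The pair without this separation was Ugt2b38 and Sult1b1, both with few reads.

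Likeness in sequence was set beside likeness in response for the 28 pairs of tested Ugt2 genes. The coding sequences fell into pairs with 66.3% to 74.7% identity and pairs with 85.9% to 97.0% identity, a division made after the values were seen. Among the 10 closer pairs, the difference between the log2 fold changes ranged from 0.06 to 1.89 with a median of 0.53, and 4 pairs had opposite signs. Among the 18 more distant pairs it ranged from 0.09 to 1.77 with a median of 0.75, and 12 had opposite signs. All 4 close pairs of opposite sign contained Ugt2b36, whose identity was 88.3% to Ugt2b35 and 88.6% to Ugt2b5. Ugt2b36 and Ugt2b1, at 73.9% identity, differed by 0.13 in log2FC. Signs were counted whether or not a gene was called, and Ugt2b5, Ugt2b38 and Ugt2a3 were not (edgeR adjusted p 0.192, 0.520 and 0.0528). Of the close pairs with opposite signs, Ugt2b36 with Ugt2b35 or Ugt2b37 joins called genes. Its pairs with Ugt2b5 and Ugt2b38 do not. The pairs share genes and are given as a description with no test.

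**Figure D4:**
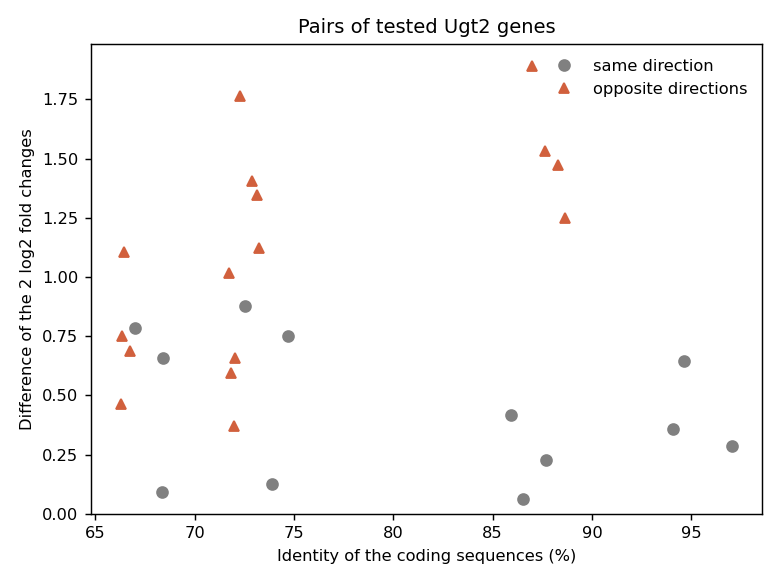
Each symbol is 1 pair of tested Ugt2 genes, with the percent identity of their coding sequences on the horizontal axis and the difference of their log2 fold changes on the vertical axis. Pairs on the right, above 85% identity, include 4 triangles (opposite directions) with differences from 1.25 to 1.89, all of them pairs with Ugt2b36. Directions are the signs of the log2 fold changes, also for genes that were not called.

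Cytosolic sulfotransferase reads were few. The 19 Sult genes together had 22.2 ± 0.649 CPM in control and 15.4 ± 2.01 CPM after IL-1β (SD, n = 3 each), 30.5% fewer, against 1092 ± 18.4 and 967 ± 9.21 CPM for all UGT genes, 11.5% fewer. UGT reads per SULT read were 47.4, 49.0 and 51.4 in control and 54.5, 68.3 and 67.4 after IL-1β. The groups did not overlap in this ratio.

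Sult1d1 (NM_016771, minus strand, transcript from 87554650 to 87569006), which sulfates catecholamines in the mouse, held the most reads of the family, 42.7% ± 4.93 in control and 32.0% ± 7.31 after IL-1β (SD, n = 3 each). The 250 bases before its start, chr5:87569007-87569256 on the minus strand (RefSeq, GRCm38.p6), are shown because it is the SULT gene that was called. Capitals mark CACGC, which is GCGTG (the core of the Ah receptor site) on the other strand, 47 to 43 bases before the start.
Sult1d1: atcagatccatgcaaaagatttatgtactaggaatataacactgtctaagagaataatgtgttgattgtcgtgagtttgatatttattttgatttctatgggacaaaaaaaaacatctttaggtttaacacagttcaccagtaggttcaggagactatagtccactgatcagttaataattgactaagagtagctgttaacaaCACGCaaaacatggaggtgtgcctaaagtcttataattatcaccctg
Ah receptor core matches were in 32.4% of all RefSeq windows. Over the 33 member genes with such a window, 9 held the C/EBP motif, 5 the AP-1 motif, 4 the Ah receptor core, 1 CAAAGTCC (HNF4, 1.42% of all windows) and 1 GGGANNTTC (NF-kB, 3.94%). Some of these genes are close copies of each other, and the counts are given without a test.

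Sult1d1 was at 10.4, 8.14 and 9.86 CPM in control and 7.16, 4.13 and 3.81 CPM after IL-1β. All 3 IL-1β samples were below the lowest control sample, IL-1β sample 1 least so. The log2FC was -0.92 (SE 0.252, 95% interval -1.44 to -0.40, edgeR adjusted p = 0.0139), and the adjusted p was 0.0865 without IL-1β sample 2 and 0.101 without IL-1β sample 3. None of the other 6 tested SULT genes passed the threshold, and their intervals were wide. Sult1a1, the main phenol sulfotransferase, had 0.938, 3.13 and 2.72 CPM in control and 1.07, 1.25 and 1.49 CPM after IL-1β. Control sample 1 lay with the IL-1β samples, and log2FC was -0.83 with an interval from -1.82 to 0.17 (adjusted p 0.323). Sult1e1, the estrogen sulfotransferase, had 1.41, 1.61 and 1.41 CPM in control and 1.71, 1.82 and 2.23 CPM after IL-1β, without overlap. The log2FC was 0.38 with an interval from -0.52 to 1.28 (adjusted p 0.677).

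Sult5a1 also had no overlap, with 2.53 ± 0.677 CPM in control and 1.87 ± 0.139 CPM after IL-1β (SD, n = 3 each), at log2FC -0.44 and an edgeR adjusted p of 0.578. As listed, Sult5a1 stops 2655 bases short of the annotated gene end, so reads from that end may be missing from its counts. Sult1c2 had log2FC -0.64 (adjusted p 0.513), Sult2a8, a bile acid sulfotransferase, -0.47 (adjusted p 0.585) and Sult1b1, which acts on thyroid hormone, 0.09 (adjusted p 0.943). For Sult2a8 the direction was positive (0.029) without control sample 1, and for Sult1b1 it was negative without control sample 1 (-0.0079), IL-1β sample 1 (-0.042) or IL-1β sample 3 (-0.042). The 95% intervals reached a 2-fold difference for 5 of these 6 genes, Sult1b1 being the other.

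No read was counted for 11 genes in any of the 6 libraries: Ugt1a7c, Sult1c1, Sult3a1, Sult4a1, Sult2b1, Sult2a1, Sult2a2, Sult2a3, Sult2a4, Sult2a6 and Sult2a7. Over the 62340576 counts of all libraries, a count of 0 allows up to 0.0481 CPM. Sult4a1 is known from brain, Sult2b1 sulfates cholesterol in skin, and the Sult2a genes of this list and Sult3a1 are known as genes of the female mouse liver. Sult2a8, by contrast, had reads in every library. The Y-linked genes Ddx3y, Eif2s3y, Kdm5d and Uty summed to 190 to 200 CPM in each library and Xist had 1 to 8 counts, with 0 of the tested ones called. The part of the sex of the mice in the counts of 0 was not tested. The Sult2a genes share part of their 3′ ends, from 0% of windows for Sult2a3, Sult2a7 and Sult2a8 to 43.4% for Sult2a2, so reads of these could have been left out or moved in counting. Another 9 genes had counts but were under the filter, with at most 28 in a library, among them Ugt1a1, Ugt1a2, Ugt1a6a, Ugt1a9, Ugt3a1, Sult6b1 and Sult2a5.

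The enzymes that supply the donors were looked at from lists of pathway genes. Beside the counts of calls in this and the following lists, 6.44% of all genes tested were called lower and 6.97% higher. For UDP-glucuronic acid, 2 of 12 tested genes were called lower and 1 higher, with a median log2FC of 0.01. Ugdh, which oxidizes UDP-glucose to UDP-glucuronic acid, was at 324, 281 and 320 CPM in control and 205, 217 and 212 CPM after IL-1β. The groups were well apart, with log2FC -0.55 (SE 0.070, edgeR adjusted p = 2.21e-06). Slc35d1, which carries UDP-glucuronic acid into the endoplasmic reticulum, fell from 119 ± 2.73 to 97.7 ± 6.73 CPM (log2FC -0.28, adjusted p 0.0145), with adjusted p 0.0564 without control sample 3 and 0.132 without IL-1β sample 1. Pgm2, a phosphoglucomutase, rose from 139 ± 13.5 to 172 ± 9.18 CPM (log2FC 0.31, edgeR adjusted p 0.00683). Ugp2, which makes UDP-glucose, had 69.4 ± 5.64 and 65.1 ± 6.33 CPM (log2FC -0.09, adjusted p 0.620).

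For sulfate and PAPS, 2 of 14 tested genes were called lower and 0 higher, with a median log2FC of -0.27. Slc26a1, a sulfate transporter of the hepatocyte membrane, was at 50.5, 45.8 and 53.5 CPM in control and 20.1, 19.3 and 19.1 CPM after IL-1β. Its log2FC of -1.36 (SE 0.112, edgeR adjusted p = 1.13e-09) was larger in size than that of any tested UGT or SULT gene. Ethe1, which oxidizes sulfide-derived persulfide, was the other (log2FC -0.30, adjusted p 0.00754, and 0.0739 without IL-1β sample 2). The PAPS synthases Papss1 (12.5 ± 0.720 and 10.2 ± 1.23 CPM, log2FC -0.28) and Papss2 (18.1 ± 3.44 and 14.9 ± 0.795 CPM, log2FC -0.29) had edgeR adjusted p of 0.375 and 0.290.

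**Figure D5:**
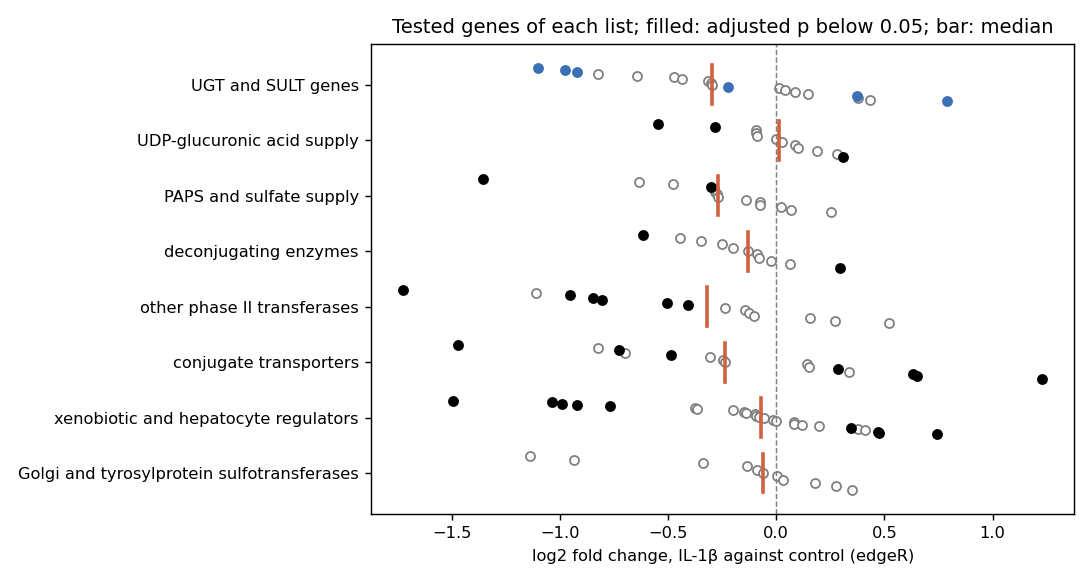
Each point is 1 tested gene, with the log2 fold change of IL-1β against control on the horizontal axis and the gene lists on the vertical axis, filled where the edgeR adjusted p was below 0.05, with a bar at the list's median. The UGT and SULT genes (top, median -0.30) have filled points on both sides of 0, as do transporters and regulators, whereas all 6 filled points of the other phase II transferases lie to the left and the Golgi sulfotransferases have none.

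Other conjugating enzymes were lower where they were called. Of 14 tested phase II transferases outside the UGT and SULT families, 6 were called lower and 0 higher, with a median log2FC of -0.32. The shares of all genes tested were 6.44% lower and 6.97% higher. Glyat, which conjugates acyl groups to glycine, fell from 91.8 ± 11.8 to 47.3 ± 6.71 CPM (SD, n = 3 each, log2FC -0.96, edgeR adjusted p = 2.33e-07). Sulfotransferases of the Golgi, which act on proteins and sugar chains, had 11 of 22 genes tested and 0 called by edgeR, with a median log2FC of -0.06. Of 11 tested enzymes that remove glucuronic acid or sulfate or activate sulfatases, 1 was called lower (Galns, log2FC -0.61, adjusted p 0.0250) and 1 higher (Arsa, log2FC 0.30, adjusted p 0.0328). Arsa lost its call without control sample 2 or 3 or IL-1β sample 1 or 2 (adjusted p up to 0.178) and with upper-quartile (0.0576) or total-count scaling (0.0806). Galns lost it without any single sample other than control sample 2 (up to 0.103) and with DESeq2 (0.0527).

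Transporters moved both ways, with 3 of 15 tested called lower and 4 higher (6.44% and 6.97% of all genes) and a median log2FC of -0.24. Abcg2, an exporter of sulfate conjugates into bile, was at 92.9, 108 and 112 CPM in control and 62.5, 65.6 and 61.2 CPM after IL-1β (log2FC -0.73, edgeR adjusted p = 8.18e-07). Abcc3, which exports glucuronides to the blood, was at 85.6, 59.9 and 70.3 CPM in control and 115, 107 and 117 CPM after IL-1β (log2FC 0.65, adjusted p 2.84e-05). Abcb1b, a P-glycoprotein, rose by log2FC 0.63 (adjusted p 0.000307). Slc16a1, a monocarboxylate carrier, had the largest rise of the list, from 108 ± 3.05 to 254 ± 13.5 CPM (log2FC 1.23, edgeR adjusted p = 1.09e-12).

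Among 26 tested regulators of these enzymes and their target genes, 5 were called lower and 4 higher (6.44% and 6.97% of all genes), with a median log2FC of -0.07. Hnf4a, a nuclear receptor that maintains hepatocyte genes, was at 84.6, 91.1 and 87.1 CPM in control and 41.6, 43.8 and 42.5 CPM after IL-1β (log2FC -1.04, edgeR adjusted p = 1.62e-09), and it is also 1 of the 7 hepatocyte markers called lower. Foxa3, a forkhead factor of the liver, fell by 0.99 on the log2 scale (adjusted p 7.08e-08). Nr1i2, the xenobiotic receptor PXR, fell from 9.45 ± 0.778 to 5.57 ± 1.79 CPM (log2FC -0.77, edgeR adjusted p 0.0331). That call was lost without control sample 1 (0.0656) or 3 (0.0691) and without IL-1β sample 2 (0.187) or 3 (0.118), and with DESeq2 (0.0622). Nr1i3, the receptor CAR, was under the filter with at most 6 counts in a library. Ahr rose from 27.3 ± 4.06 to 38.0 ± 0.0384 CPM (log2FC 0.47, edgeR adjusted p 0.00659), while Cyp1a2, a liver cytochrome that this receptor can induce, fell from 213 ± 18.2 to 75.5 ± 5.13 CPM (log2FC -1.49, adjusted p 2.85e-13). Nfe2l2, the oxidative stress factor NRF2, rose by log2FC 0.47 (adjusted p 8.44e-06). Whether any of these moved the UGT or SULT genes was not tested.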

How the data were processed

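Primary hepatocyte RNA from 3 control and 3 IL-1β samples was sequenced by QuantSeq 3′ mRNA-Seq (single-end, 75 nt). Per the labels, the authors aligned reads with Bowtie2 to mm10 (GRCm38) and used edgeR with TMM. The counter and its handling of multi-mapping reads are not given in the sources used here. The authors deposited raw read counts per gene, which were used, beside log2 normalized values, group averages, fold changes and p-values of their own, which were not used. Library totals ranged from 9538741 to 11105408 counts, and the floors of 3 counts cover counting error only. The 95% intervals come from the edgeR fit and include the spread between samples.

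The test was edgeR's (version 4.0.16 in R 4.3.3; filterByExpr, TMM, glmQLFit, glmQLFTest, Benjamini-Hochberg over 11657 genes). For the Ugt1a sum, the Ugt1a rows were replaced by their sum and a separate fit was run with the same library sizes and TMM factors. The procedure was tested on simulated data. Of the genes that passed the filter there, 65, 66 and 64 had been changed 1.5-fold, 2-fold and 4-fold. Of these 66.2%, 84.8% and 98.4% were called at adjusted p below 0.05. Changed genes lost to the filter are not in these percentages. Unchanged genes made up 7.43% of the calls. Far fewer genes were changed there than were called in the data. Sequences and coordinates came from RefSeq windows (GRCm38.p6) and GENCODE M21 on GRCm38, read with Python 3.11.15 and Biopython 1.88. All 39 genes overlapped their GENCODE intervals, and 33 had a RefSeq window. Identity was taken from global alignments. Permutation tests went through every division of the samples into groups of equal size, in Python.

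The members, gene lists and tests were chosen with earlier results of these data known. Named were all tested members, other members by their counts, at most 4 genes of a pathway list with the smallest adjusted p, the fixed genes Ugp2, Ugdh, Papss1, Papss2, Ahr, Nr1i2, Nr1i3 and Hnf4a, and the most abundant or defining markers. A few chosen genes and 1 chosen motif are not reported here. Tf and Sts were not analysed here. Same-numbered control and IL-1β samples did not deviate together (correlations 0.075, 0.027 and -0.005), so no pairing was assumed. Alternatives were total-count or upper-quartile scaling, a minimum of 10 counts in all samples or no filter, DESeq2 1.42.0, limma 3.58.1 on log2(CPM + 1), the replicate block, leaving out each sample, omitting Rn45s, adjusted p below 0.01 or 0.1, and a 1.5-fold minimum.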

Additional observations from a re-analysis of the deposited data

How the results depend on the processing

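Ugt2b36, Ugt2b1 and Ugt2b35 had an adjusted p below 0.05 under all 14 alternatives. Members called lower numbered 4, and 2 at adjusted p below 0.01, and from 2 to 4 when a sample was left out. Members called higher numbered 2, and 1 at adjusted p below 0.01, 1 with a fold over 1.5, and from 1 to 2 when a sample was left out. With the replicate block, 1671 genes in place of 1563 were called and 5 members were lower and 2 higher. The samples share only a number: same-numbered correlations were 0.075, 0.027 and -0.005. Total-count scaling moved the median of all genes to -0.055, and 39.7% of calls were then higher, in place of 52%. DESeq2 called 1365 genes and leaving out a sample 1131 to 1596.

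Signs that changed belonged to differences that missed the threshold. The Ugt1a sum was -0.025 with total-count scaling and from -0.045 to 0.108 when a sample was left out. Ugt1a6b was -0.016 with total-count scaling and -0.033 to 0.11 with a sample left out. Ugt1a10 was -0.045 with total-count scaling, -0.011 with upper-quartile scaling and -0.014 with DESeq2, and from -0.44 to 1.02 with a sample left out. Sult1b1 ranged from -0.042 to 0.32 and Sult2a8 from -0.71 to 0.029 with a sample left out. Eng was -0.039 with total-count scaling, -0.013 with upper-quartile scaling and -0.048 to 0.12 with a sample left out. The cause was not tested. Most SULT genes had a few CPM and wide intervals, in which counting error and the spread between samples were not separated.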
